A study of Mus musculus with 7 samples.

Results

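Planar cell polarity genes were followed here in damaged mouse utricles with and without extra Fos. The set was a fixed list of 9 genes, chosen by name for their place in planar polarity and hair bundle orientation, out of 32285 genes in the count files. The choice was made with earlier results of these data known. The 9 genes are Vangl1, Vangl2, Prickle1, Prickle2, Celsr1, Celsr2, Celsr3, Ptk7 and Emx2, and all had enough reads to be tested. The utricle is a balance organ of the inner ear. Explants from P2 mice labelled WT (wild-type C57BL/6J in the methods) were placed in culture, and all 7 libraries came from explants damaged with gentamicin (2 mM for 24 h per the methods), an antibiotic that kills hair cells. In the Gent+Fos OE group (4 libraries) the explants also received AAV-PHP.eB Fos, a virus in which the CMV promoter, active in many cell types, drives mouse Fos, with an exposure of 48 h. The Gent group (3 libraries) is labelled with gentamicin alone. Whether it received a virus is not settled, since a figure legend of the study names a control virus for this comparison and the names of its deposited counts hold letters that also stand for a hairpin RNA. Each library is a pool of 12 utricles collected at day 5 after injury. The methods state 3 replicates per condition without naming them, so all 7 libraries were used. A whole explant holds supporting cells, hair cells, connective tissue and other cells, and fewer cells of a type and less RNA per cell cannot be told apart in these data.

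Planar cell polarity is the system by which cells of a sheet agree on a direction within its plane. A pair of membrane complexes sits on opposite sides of each cell, Vangl with Prickle on one side and Frizzled with Dishevelled on the other, and the Celsr cadherins join the neighbours across the junction. In the inner ear this system aligns the hair bundles of neighbouring hair cells, and mouse mutants of Vangl2, Celsr1 or Ptk7 have misturned bundles. The utricle also has a line at which bundle orientation reverses. The transcription factor Emx2 is made on the lateral side of that line, and the kinase Stk32a acts on the other side.

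Library totals ran from 27879889 to 34335214 reads. Fos, the gene delivered by the virus, had 151, 151, 167 and 149 CPM (counts scaled to library size, TMM-normalized) in the Gent+Fos OE libraries and 39.5, 40.6 and 34.6 CPM in the Gent libraries, so the labels match the targeted gene. This is a log2 fold change of 2.01 ± 0.13 (standard error) with an adjusted p of 0.000142 by edgeR's quasi-likelihood test, and reads of the viral and the mouse's own copy cannot be told apart. Markers of hair cells, supporting cells, epithelium, connective tissue, neurons and Schwann cells had counts. Of 4 genes listed for regions of the utricle, the hair cell gene Ocm reached at most 0.433 CPM. All fold changes below are Gent+Fos OE over Gent, and a gene was called at an adjusted p under 0.01 and a log2 fold change beyond 0.25 in either direction. These limits are those of the study's methods, which applied them to DESeq2 and not to edgeR. Of 17155 genes tested, edgeR called 71, which is 0.414% (23 higher and 48 lower).

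None of the 9 planar cell polarity genes was called. The mean was higher in Gent+Fos OE for 8 of them and lower for Prickle1, and the median of their log2 fold changes was 0.41 against -0.00 over all tested genes. In 6 of the 9 genes (Vangl1, Vangl2, Celsr1, Celsr2, Celsr3 and Emx2) the lowest Gent+Fos OE library exceeded the highest Gent library, and in 0 the reverse held. Over all tested genes these patterns were found in 11.3% and 12.2%. At an unadjusted p under 0.05 the count was 4 of 9 (Vangl2, Celsr1, Celsr2 and Celsr3), all higher, against 24.5% of all genes in either direction and 11.1% higher. No member passed the limits by DESeq2, which called 2.86% of its 20961 genes, or by limma-voom, which called 0.379%. DESeq2 gave 3 of them an adjusted p under 0.05, namely Celsr1 (0.0241), Celsr2 (0.0251) and Vangl2 (0.0316), against 6.82% of its genes. In the exact permutation tests given for single genes, the 35 assignments of 7 libraries to groups of 4 and 3 allow no p below 0.0286, and each test is two-sided.

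**Figure D1:**
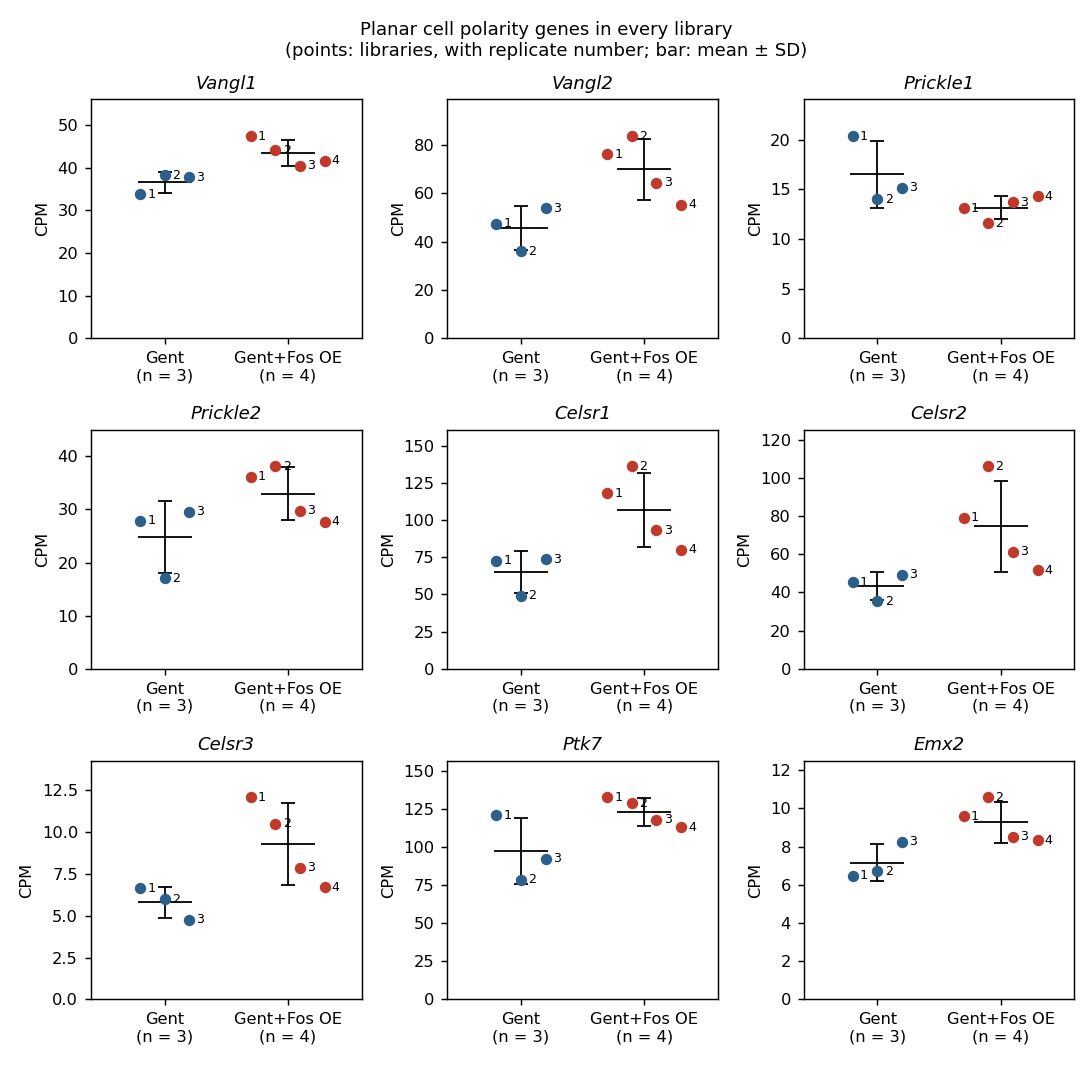
Normalized expression (CPM, linear axis from 0) of each planar cell polarity gene in the 3 Gent libraries (blue) and the 4 Gent+Fos OE libraries (red), with replicate numbers beside the points and bars for mean ± SD. The groups do not overlap for Vangl1, Vangl2, Celsr1, Celsr2, Celsr3 and Emx2, and replicates 1 and 2 of Gent+Fos OE are the highest for all of these.

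Vangl2, a membrane protein whose loss in mice disturbs bundle orientation, lies on chromosome 1 of mm10 from 172000960 to 172028444 on the minus strand (ENSMUSG00000026556). It had 76.1, 83.7, 64.3 and 55.3 CPM in Gent+Fos OE replicates 1 to 4 and 47.4, 36 and 53.7 CPM in Gent replicates 1 to 3. The groups did not overlap, but Gent+Fos OE replicate 4 was only just above Gent replicate 3. The log2 fold change was 0.61 (standard error 0.18, 95% interval 0.21 to 1.01), with an adjusted p of 0.105 by edgeR's quasi-likelihood test and 0.0571 in the exact permutation test. Its paralogue Vangl1 (chromosome 3, 102153583 to 102204693, minus strand, ENSMUSG00000027860) had 47.4, 44.0, 40.4 and 41.6 CPM with Fos and 33.7, 38.2 and 37.8 CPM without. Its groups did not overlap either, in a much narrower range than those of Vangl2. The log2 fold change of Vangl1 was 0.24 (standard error 0.12, edgeR adjusted p = 0.236, exact permutation p = 0.0286).

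The Prickle genes encode LIM domain proteins that bind Vangl on the inner face of the membrane, and they had opposite signs. Prickle1 (chromosome 15, 93499114 to 93595891, minus strand, ENSMUSG00000036158) had 13.1, 11.6, 13.7 and 14.3 CPM in Gent+Fos OE and 20.4, 14 and 15.2 CPM in Gent. Gent replicate 1 stood well above the other libraries, and Gent replicate 2 lay inside the range of Gent+Fos OE. The log2 fold change was -0.33 (standard error 0.17, 95% interval -0.69 to 0.04, edgeR adjusted p = 0.247), and -0.15 without Gent replicate 1. Prickle2 (chromosome 6, 92370908 to 92706155, minus strand, ENSMUSG00000030020) had 36.2, 38.1, 29.8 and 27.7 CPM with Fos and 27.9, 17.1 and 29.6 CPM without. Only Gent replicate 2 was clearly low, and the other libraries of both groups overlapped. Its log2 fold change was 0.41 (standard error 0.20, edgeR adjusted p = 0.234), and 0.19 without Gent replicate 2.

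The 3 Celsr genes, seven-pass cadherins that bridge neighbouring cells, gave the highest fold changes among the 9 with all libraries and no length correction. With that correction, described below, Vangl2 and Emx2 were above all of them, and Vangl2 was above Celsr3 without Gent replicate 3 (0.74 against 0.56), without Gent+Fos OE replicate 1 (0.56 against 0.52) and without Gent+Fos OE replicates 1 and 2 (0.38 against 0.33). Celsr1 (chromosome 15, 85898929 to 86033777, minus strand, ENSMUSG00000016028) had 118, 136, 93.1 and 80.0 CPM in Gent+Fos OE and 72.8, 49.1 and 73.6 CPM in Gent. The log2 fold change was 0.71 (standard error 0.21, 95% interval 0.25 to 1.17), with an edgeR adjusted p of 0.102 and an exact permutation p of 0.0571. Celsr2 (chromosome 3, 108390851 to 108415552, minus strand, ENSMUSG00000068740) had 79.1, 106, 61.4 and 51.8 CPM with Fos and 45.5, 35.4 and 49.4 CPM without. Both genes had their highest value in Gent+Fos OE replicate 2 and their lowest in Gent replicate 2, with a small gap between the groups. For Celsr2 the log2 fold change was 0.78 (standard error 0.23, 95% interval 0.27 to 1.29, edgeR adjusted p = 0.106, exact permutation p = 0.0571). Celsr3 (chromosome 9, 108826320 to 108852969, plus strand, ENSMUSG00000023473), the member of the family best known from axon guidance, was much lower, with 12.1, 10.5, 7.88 and 6.70 CPM in Gent+Fos OE and 6.64, 5.99 and 4.77 CPM in Gent. Gent+Fos OE replicate 4 and Gent replicate 1 nearly coincided, so these groups were only just apart. Its log2 fold change was 0.68 (standard error 0.23, edgeR adjusted p = 0.133, exact permutation p = 0.0571).

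Ptk7, a receptor-like kinase without kinase activity that acts in planar polarity and Wnt signalling, lies on chromosome 17 from 46564471 to 46629504 on the minus strand (ENSMUSG00000023972). It was the gene with the most reads relative to its length, at 133, 129, 118 and 113 CPM with Fos and 121, 78.6 and 92.4 CPM without. Gent replicate 1 fell inside the range of Gent+Fos OE and the other 2 Gent libraries fell below it. The log2 fold change was 0.34 (standard error 0.16, edgeR adjusted p = 0.212). It was 0.20 without Gent replicate 2. Without Gent replicate 1 it was 0.53, with an edgeR adjusted p of 0.0476, the lowest that any of the 9 genes reached when 1 library was left out.

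Emx2, the homeobox factor of the lateral utricle, lies on chromosome 19 from 59458372 to 59465357 on the plus strand (ENSMUSG00000043969). It had 9.61, 10.6, 8.52 and 8.34 CPM in Gent+Fos OE and 6.47, 6.73 and 8.26 CPM in Gent. The groups did not overlap, with Gent replicate 3 just under Gent+Fos OE replicate 4. The log2 fold change was 0.37 (standard error 0.17, 95% interval -0.01 to 0.76), with an edgeR adjusted p of 0.212 and an exact permutation p of 0.0286. Of the exonic bases of Emx2, 8.79% are shared with its antisense neighbour Emx2os. Strand was not used in counting and reads that hit both genes were left out, so the reads of Emx2 and Emx2os cannot be fully told apart. Emx2os itself had 0.896 to 2.96 CPM (log2 fold change 0.79, standard error 0.38, edgeR adjusted p = 0.224, groups overlapping). Stk32a, the kinase that Emx2 represses, was low at 2.51 to 4.56 CPM over the 7 libraries, with a log2 fold change of 0.21 (standard error 0.26, edgeR adjusted p = 0.632) that was 0.02 without Gent+Fos OE replicate 2 and -0.00 with the length correction described below.

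**Figure D2:**
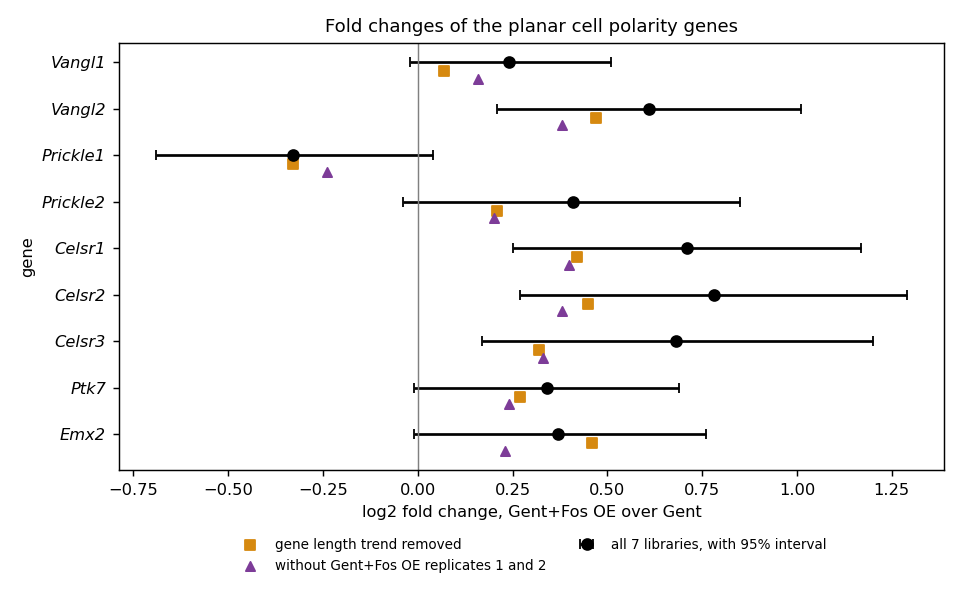
Log2 fold change of each planar cell polarity gene, Gent+Fos OE over Gent, from all 7 libraries (black circles with 95% interval), after removal of each library's trend with gene length (orange squares) and without Gent+Fos OE replicates 1 and 2 (purple triangles). Prickle1 alone is below 0, and the 3 Celsr genes drop from 0.68 to 0.78 to between 0.32 and 0.45 in both alternatives.

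Levels of different genes were compared as RPKM, that is CPM divided by the exonic length in kilobases. Ptk7 was highest at 22.9 ± 1.75 RPKM in Gent+Fos OE (SD, n = 4) and 18.1 ± 4.04 RPKM in Gent (SD, n = 3), above 85.9% of all tested genes, and it did not overlap with any other member. Vangl2 followed at 9.99 ± 1.80 and 6.54 ± 1.28 RPKM and Celsr1 at 9.69 ± 2.26 and 5.92 ± 1.26 RPKM, and the ranges of these neighbours overlapped in both groups. Vangl1 was at 6.06 ± 0.430 and 5.11 ± 0.347 RPKM, below Celsr1 in every Gent+Fos OE library but overlapping with it in Gent. Celsr2, at 6.47 ± 2.06 and 3.77 ± 0.628 RPKM, overlapped with Vangl1 with Fos and lay under it without. The next were Prickle2 at 3.82 ± 0.576 and 2.88 ± 0.780 RPKM and Prickle1 at 3.03 ± 0.268 and 3.80 ± 0.782 RPKM. Prickle2 was above Prickle1 in 3 of 4 Gent+Fos OE libraries and in 0 of 3 Gent libraries, with overlapping ranges in both groups. Emx2 was at 3.09 ± 0.354 and 2.38 ± 0.323 RPKM, overlapping with Prickle1 with Fos and under it without. Celsr3 was last at 0.771 ± 0.204 and 0.481 ± 0.0789 RPKM, above only 18.0% of the tested genes and apart from Emx2 in every library.

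**Figure D3:**
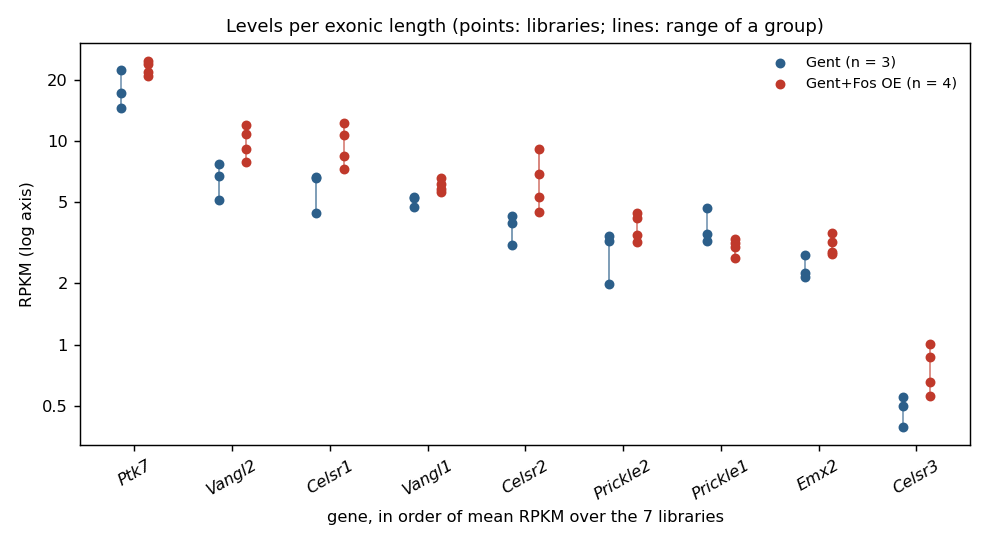
Level per exonic length (RPKM, log axis) of the planar cell polarity genes in Gent (blue, n = 3) and Gent+Fos OE (red, n = 4), ordered by the mean over all 7 libraries. Points are libraries and lines the range of a group, from 14.6 to 24.8 RPKM for Ptk7 at the top to 0.395 to 1.01 RPKM for Celsr3 at the bottom.

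The make-up within each family was compared by the ratio of reads of 2 paralogues in the same library, which does not depend on scaling between libraries. Prickle1 had 0.36, 0.30, 0.46 and 0.52 times the reads of Prickle2 in Gent+Fos OE and 0.73, 0.81 and 0.51 times in Gent. The difference in log2 ratio was -0.74 (means -1.32 and -0.57), and the groups overlapped through Gent replicate 3 (exact permutation p = 0.0857, 0.286 after Benjamini-Hochberg adjustment over the 5 ratios compared). For Vangl1 over Vangl2 the difference was -0.37 (exact permutation p = 0.114, adjusted 0.286), with ratios of 0.62, 0.53, 0.63 and 0.75 with Fos and 0.71, 1.06 and 0.70 without. Without Gent replicate 2, the one library with more Vangl1 than Vangl2 reads, that difference was -0.17. Within the Celsr family the ratios differed less, by -0.03 for Celsr1 over Celsr2, 0.05 for Celsr1 over Celsr3 and 0.08 for Celsr2 over Celsr3 on the log2 scale (exact permutation p from 0.714 to 0.857, adjusted 0.857 each). Per length, Celsr1 gave 55.1 to 59.5% of the family's signal over the 7 libraries, Celsr2 35.5 to 41.1% and Celsr3 3.48 to 6.18%, with overlapping groups for each.

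The members with higher means in Gent+Fos OE shared much of their order over libraries. Prickle1 did not share it, with its highest value in Gent replicate 1 and its lowest in Gent+Fos OE replicate 2. Within Gent, however, Prickle1 was lowest in replicate 2, as were Vangl2, Celsr1, Celsr2, Prickle2 and Ptk7. Gent+Fos OE replicate 2 was the highest library for 5 of the 9 genes and replicate 1 for 3, whereas Gent replicate 2 was the lowest for 5. As a median over the 9 genes, log2 CPM lay 0.33 and 0.41 above the mean of the 7 libraries in Gent+Fos OE replicates 1 and 2, and at 0.08 and -0.05 in replicates 3 and 4. The Gent libraries were at -0.22, -0.49 and -0.10, so replicates 3 and 4 of Gent+Fos OE were nearer to Gent than the first 2. Without Gent+Fos OE replicates 1 and 2, a choice made after the values were seen, 0 of the 9 genes had an unadjusted p under 0.05 against 8.75% of all genes in that fit, the median log2 fold change was 0.24 and the Celsr genes were at 0.33 to 0.40. That fit called 0 genes of any kind and left 2 libraries in the group.

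Gene length moved with the same libraries. Of the 9 genes, 8 have exons summing to more than the median of the tested genes, 4084 bp, and the Celsr genes are the longest at 11007 to 12063 bp. Genes are not independent of each other, but compared over all of them, a library's departure in log2 CPM rose with gene length in Gent+Fos OE (Spearman's rho 0.325, 0.291, 0.213 and 0.124 in replicates 1 to 4). In Gent it was 0.153, -0.496 and -0.221. With each library's trend removed, the log2 fold changes of Celsr1, Celsr2 and Celsr3 were 0.42, 0.45 and 0.32, Vangl1 was at 0.07 and Prickle2 at 0.21, while Prickle1 stayed at -0.33. Vangl2 was at 0.47 (edgeR adjusted p = 0.0963) and Emx2, the shortest of the 9 at 3002 bp, rose from 0.37 to 0.46 (edgeR adjusted p = 0.152). The median over the 9 was then 0.32, against -0.04 for all tested genes.

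Marker lists of other cells differed in how they compared between the groups. The summed CPM of 9 supporting cell markers ran from 2796 to 3660 with Fos against 2138 to 2592 in Gent, without overlap, and 7 of 9 were higher. The only one of the 9 that was called was Otog, a gene of the extracellular membrane over the sensory patch (431 to 1354 CPM, log2 fold change 1.25, edgeR adjusted p = 0.00851). Without Otog the sums were 1965 to 2306 against 1694 to 2126 CPM and overlapped, and Sox2 (0.08), Slc1a3 (0.01), Lfng (-0.07) and Fbxo2 (-0.22) had log2 fold changes near or under 0. Otogl (0.79), Prox1 (0.62), Tecta (0.58) and Sox9 (0.42) had higher ones, none of them called. The 5 general epithelial markers all had positive fold changes with 0 called, at an overlapping sum of 1811 to 2859 against 1414 to 1937 CPM. Of 12 hair cell markers 8 were higher and 4 lower with 0 called, and their sums of 1060 to 1293 against 847 to 1083 CPM overlapped. Connective tissue markers summed to 7186 to 10743 against 8864 to 12841 CPM, with 4 of 11 higher. All 8 macrophage markers were lower, with sums of at most 1412 CPM with Fos against 1554 to 1955 CPM, as were all 6 melanocyte markers, at 45.7 to 50.9 against 87.6 to 124 CPM with 2 called. Markers of neurons (75.3 to 94.8 against 67 to 82 CPM), Schwann cells and glia (537 to 646 against 499 to 730 CPM) and endothelium (129 to 174 against 141 to 204 CPM) overlapped, as did the summed region genes (441 to 519 against 428 to 613 CPM). Within that sum the region genes differed. Tectb, from 39 to 208 CPM over the 7 libraries, was at -1.39 (edgeR adjusted p = 0.0348, not called). Cyp26b1 was at 0.38 and Aldh1a3 at -0.00. No marker was at 0 in every library.

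Relative to the summed supporting cell markers of the same library, 5 of the 9 planar cell polarity genes were higher and 4 lower, with a median log2 difference of 0.02. That value rested on Otog, and with Otog left out of the sum 8 were higher and 1 lower, with a median of 0.30. Emx2 differed by -0.04 with Otog in the sum and by 0.25 without it, in the latter case with no overlap between the groups. The Celsr genes differed by 0.24 to 0.33 with Otog and by 0.53 to 0.61 without, all with overlapping groups, and Vangl2 by 0.20 with overlap and by 0.48 without overlap. Prickle1 was at -0.72 without overlap and at -0.44 with overlap. Relative to the epithelial markers, 6 were higher and 3 lower, with a median of 0.07 and overlap for all 9. These scalings were added after the values were seen, and the part that cell make-up has in the differences was not tested beyond them.

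**Figure D4:**
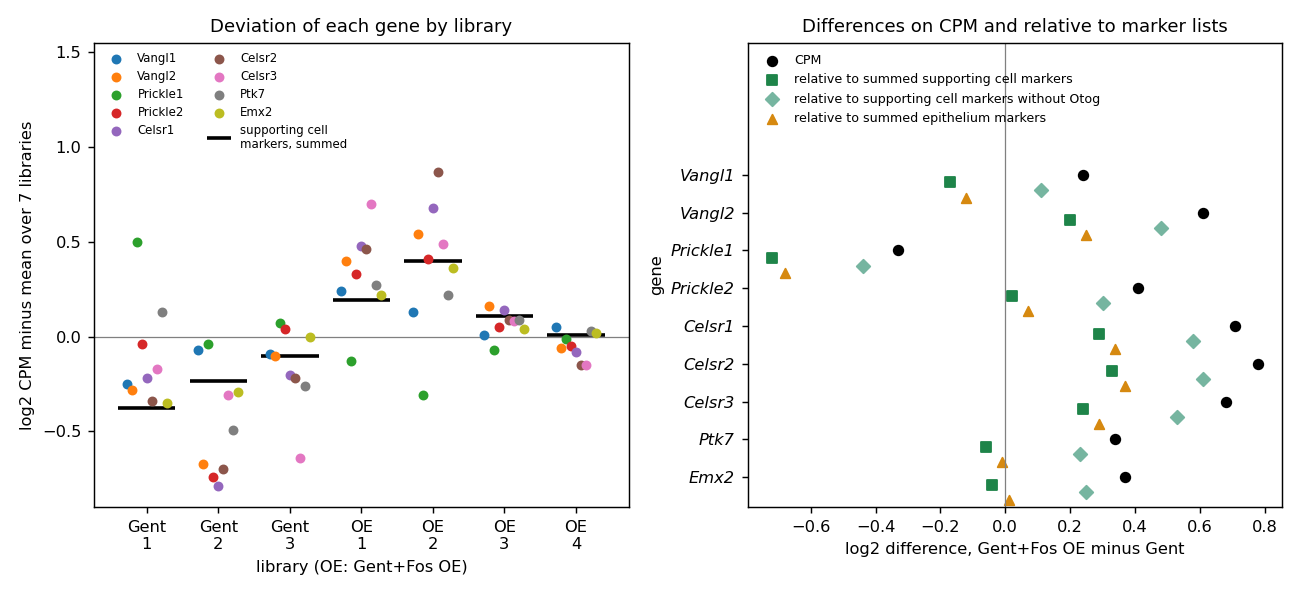
Left, log2 CPM of each planar cell polarity gene minus its mean over 7 libraries (coloured points), with the summed supporting cell markers as black bars, and right, the log2 difference between the groups for CPM (circles), relative to supporting cell markers with Otog (squares) and without it (diamonds) and relative to epithelium markers (triangles). Gent+Fos OE replicates 1 and 2 are the highest libraries for most genes, and the median difference of 0.41 on CPM is 0.02, 0.30 and 0.07 relative to these marker sums.

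The rest of the pathway was read from 5 lists, and edgeR called none of their 60 genes in either direction. At an unadjusted p under 0.05 the counts were 2 of 10 core genes, 2 of 10 ligands and receptors, 3 of 14 effectors, 1 of 6 Fat and Dachsous genes and 4 of 20 bundle genes, against 24.5% of all tested genes. All of these were higher except 1 of the bundle genes, and 11.1% of all tested genes were higher at that limit. With the length correction the medians of the core, effector and Fat and Dachsous lists went from 0.15, 0.26 and 0.34 to 0.03, 0.13 and 0.03, and those of the ligand and bundle lists from 0.01 and 0.19 to 0.05 and 0.16. Of the genes named below, Fzd3 was then at 0.35, Cplane1 at 0.29, Ccdc88c at 0.26, Alms1 at 0.42 and Fat1 at 0.27. Smaller shifts were found for Fzd6 (0.56), Wnt5a (0.35), Ror1 (0.43), Intu (0.40), Dchs2 (1.08) and Ttc8 (0.31), and lower values for Rhoa (-0.38) and Daam2 (-0.81). Of 10 other core polarity genes, 7 were higher and 3 lower. The 2 with an unadjusted p under 0.05 were the receptors Fzd3 (97.5 to 128 CPM against 44.5 to 87.7 CPM, log2 fold change 0.67, edgeR adjusted p = 0.116) and Fzd6 (87.9 to 125 CPM against 46.5 to 80.1 CPM, log2 fold change 0.60, edgeR adjusted p = 0.126), which are the Frizzled proteins of hair bundle orientation. Both had no overlap between groups, and both had their lowest value in Gent replicate 2, without which they were at 0.43 and 0.38. The Dishevelled genes, which carry the signal inside the cell, overlapped between groups, with log2 fold changes of -0.09 for Dvl1, -0.02 for Dvl2 and 0.15 for Dvl3. With 1 library left out these ran from -0.16 to 0.06, from -0.11 to 0.12 and from 0.06 to 0.20. Prickle3 was at -0.12, and at -0.24 to -0.02 with 1 library left out.

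Among 10 Wnt ligands, receptors and secreted Frizzled-related proteins, 6 were higher and 4 lower. Wnt5a, the ligand most tied to planar polarity, had 317, 283, 275 and 274 CPM with Fos and 227, 145 and 229 CPM without, a log2 fold change of 0.52 (standard error 0.17, edgeR adjusted p = 0.121) without overlap, and of 0.33 without Gent replicate 2. Its co-receptor Ror1 was at 0.51 (edgeR adjusted p = 0.179) with overlapping groups, or 0.30 without Gent replicate 2, and Ror2 at 0.01, from 14.2 to 17.4 CPM in all libraries. Sfrp5, a secreted Wnt inhibitor, was at -0.36 with overlap, and at -0.70 without Gent replicate 1 (edgeR adjusted p = 0.0424) and -0.10 without Gent replicate 2. With the length correction Sfrp5 was at -0.17. Wnt5b was at -0.16 with overlap.

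Of 14 effectors, 10 were higher and 4 lower. Cplane1 and Intu, which encode planar polarity effectors needed at the base of cilia, had log2 fold changes of 0.64 and 0.56 (edgeR adjusted p = 0.0742 and 0.105). Cplane1 was the only gene of the 5 lists that passed the limits by DESeq2 (adjusted p = 0.00932), against 2.86% of all genes. At the other end were Daam2, a formin, at -0.55 with overlap and Rhoa, a small GTPase of the actin skeleton, at -0.19 (251 to 277 against 285 to 323 CPM, edgeR adjusted p = 0.325). All 6 tested genes of the Fat and Dachsous system, giant cadherins that form a second polarity system, had positive values, but Fat3 (from 0.40 to -0.06), Fat4 (from 0.28 to -0.08) and Dchs1 (from 0.11 to -0.19) turned negative with the length correction. Dchs2 was the highest of them at 1.30 (standard error 0.42, edgeR adjusted p = 0.122), from 8.41 to 12.0 CPM against 1.06 to 5.32 CPM, with Gent replicate 2 far under the rest and a value of 0.85 without it. Fat1 was at 0.60, but at 0.27 without Gent replicate 2 and at 1.07 without Gent replicate 1 (edgeR adjusted p = 0.0327). Fat4 was at 0.28, but at -0.07 without Gent replicate 2 and at 0.67 without Gent replicate 1. Dchs1 was at 0.11 and Fjx1, a kinase that modifies these cadherins, at 0.04, and these 4 genes overlapped between the groups.

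Of 20 genes for hair bundle and basal body position, 15 were higher and 5 lower. An unadjusted p under 0.05 was found for 4, of which Alms1 (0.85, or 0.56 without Gent replicate 2, edgeR adjusted p = 0.102), a basal body gene, Ccdc88c (0.57, edgeR adjusted p = 0.111), which encodes the Dishevelled-binding protein Daple, and Ttc8 (0.29), a ciliopathy gene, were higher. Gnai2, a G protein subunit that is also made in many other cells, was lower at -0.34 (415 to 461 against 500 to 633 CPM, edgeR adjusted p = 0.153). Gpsm2, which works with the Gnai proteins at the bundle's bare zone, overlapped between groups at -0.08 (30.4 to 40.2 CPM), and Mkks, a ciliopathy gene, was at -0.19.

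**Figure D5:**
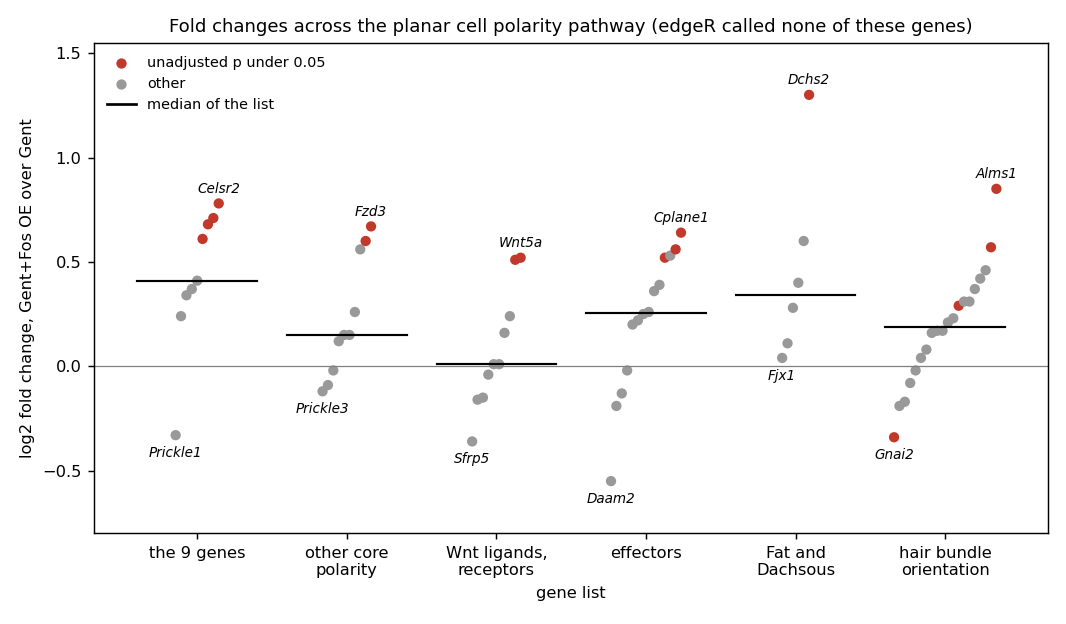
Log2 fold change, Gent+Fos OE over Gent, of the 9 planar cell polarity genes and of 5 further lists of the pathway. Each point is a gene, red at an unadjusted p under 0.05, black bars are the medians of the lists (0.41 for the 9 genes and 0.01 to 0.34 for the others), and the highest and lowest gene of each list are named.

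Fos is a subunit of AP-1, which binds TGACTCA or its reverse complement TGAGTCA. In RefSeq windows on GRCm38.p6 from 250 bases before to 50 after a start site, 7 of the 9 genes were matched with 11 windows, and 0 of them held the motif on either strand. Of all 32851 windows, 5.20% held it. This says only that these letters are not in these windows.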

How the data were processed

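RNA sequencing counts of 7 libraries were used. Per the file headers, the authors made the deposited counts with featureCounts 2.0.6 on an mm10 annotation, without strand, with the reads of a pair counted separately and reads on several genes left out. The labels also name Trim Galore 0.6.10 and HISAT2 2.2.1, whereas the study's methods name the mm39 genome. Coordinates are those of the files. Symbols came from GENCODE vM39, and RefSeq placed all 9 members at the same position.

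Counts were fitted in R 4.3.3 with edgeR 4.0.16 (filterByExpr, TMM, quasi-likelihood F-test without covariate, Benjamini-Hochberg over 17155 genes), with DESeq2 1.42.0 and limma 3.58.1 as alternatives, and tested on simulated data. Ratios and single genes were compared by exact permutation of libraries in Python 3.11.15. The length correction was a loess of log2 CPM deviation on gene length (span 0.3), used as an offset. Replicates are pools of utricles and differed by more than read sampling.

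The members, the lists and the alternatives were chosen with earlier results of these data known. Named genes were the members, Fos, the called genes and the 2 highest and 2 lowest of each list whose mean reached 1 CPM, and 12 others set by name, of which not all are reported here. Ttc8, Fat3, Emx2os and the marker genes were named after their values were seen. Columns matching no sample numbered 0. Imaging, qPCR and other assays were not analysed here.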

Additional observations from a re-analysis of the deposited data

How the results depend on the processing

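Across 17 other fits, 0 of the 9 members were called, and all 153 member fold changes kept their direction. The median log2 fold change ran from 0.33 to 0.55 with 1 library left out, and the number with an unadjusted p under 0.05 from 3 to 6, while 16.8% to 33.3% of all genes passed that limit. Without Gent+Fos OE replicates 1 and 2 that number was 0, against 8.75% of all genes. The labels do not say whether libraries of the same replicate number were processed together. The correlations of deviations between such libraries were 0.0643, -0.038 and 0.0317. They were not set against libraries of unlike number, so they do not settle whether the samples are paired. With a replicate block the median was 0.51, 4 members had an unadjusted p under 0.05 (19.8% of all genes), and 0 of all genes were called against 71. With the block and the length correction the median was 0.44. No Gent library shares the number of Gent+Fos OE replicate 4. In the block fits that library therefore did not bear on the group difference. Leaving that library out without a block gave a median of 0.48. Over all genes, 2 were called higher and 3 lower without Gent+Fos OE replicate 3, the fewest with 1 library left out, and 45 and 93 without Gent replicate 2, the most. DESeq2 called 1 gene of the 5 further lists, Cplane1, and 600 genes in all. The Celsr ratios had no stable sign. Without Gent+Fos OE replicate 2 or Gent replicate 1 the difference in log2 ratio was 0.03 and 0.02 for Celsr1 over Celsr2, and it was 0.04 without Gent+Fos OE replicates 1 and 2. With 1 library left out it ran from -0.17 to 0.28 for Celsr1 over Celsr3 and from -0.09 to 0.32 for Celsr2 over Celsr3, and without Gent+Fos OE replicate 2 it was -0.01 and -0.03. The cause was not tested. The members had 165 to 4431 reads a library, and the spread between libraries, larger than that of read sampling, set the precision.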

Other observations

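The genes whose pattern over the 7 libraries was most like that of Emx2 and Vangl2 were sought among 14838 genes averaging 1 CPM or more, by the root mean square distance between log2 CPM values centred on their mean. For Emx2 they were Nipal3 (0.0522), Bcl7a (0.0543) and Mcf2l (0.0657), set against a root mean square deviation of 0.24 for Emx2 itself. For Vangl2 they were Dnah9 (0.0507), a dynein chain of motile cilia, Klf5 (0.0664), an epithelial transcription factor, and Tbc1d16 (0.0680), against a deviation of 0.38 for Vangl2. With 7 libraries and this many genes, near matches are to be found for most patterns, and no test was made.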
